A study of Mus musculus with 4 samples.

Results

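RAS and RAL exchange factors are the enzymes that open the nucleotide pocket of these small GTPases, so that GDP leaves and GTP enters. The group described here was named gene by gene and held 10 members of 19938 genes measured: Sos1, Sos2, Rasgrp1, Rasgrp2, Rasgrp3, Rasgrf1, Rasgrf2, Ralgds, Rgl1 and Rgl2. A member was the array row annotated with that gene symbol alone, and all 10 had exactly 1 such row. RNA of mouse lung fibroblasts was hybridised to Affymetrix arrays, 1 for each of 4 samples. KrasD12 A and B came from line 493, a mutant line that the series text also calls SKY, and WT A and B came from wild-type line 494. Both lines were grown out of collagenase-digested lungs of mice aged 3 to 4 weeks, in medium with 20% serum, and neither was treated. The labels name no strain or sex and do not say what drives the mutant allele. Because each genotype is 1 line, the genotype cannot be told apart from the line. Nothing says that A and B are separate cultures, so a p-value weighs a difference only against how far A and B differ, possibly for technical reasons. For each gene, limma moderates that spread with the spread over all genes.

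The members fall into 4 families. SOS1 and SOS2 are carried to activated receptor tyrosine kinases by the adaptor GRB2 and load RAS there. The RASGRP proteins bind diacylglycerol through a C1 domain and are best known from lymphocytes and platelets, and the RASGRF proteins respond to calcium and calmodulin and are best known from neurons. RALGDS, RGL1 and RGL2 act one step further on: they bind GTP-loaded RAS and load the RAL GTPases, which makes them both RAS effectors and exchange factors. Fibroblasts signal to RAS chiefly through growth factor receptors and SOS.

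Values are log2 expression as deposited. The 4 columns did not share 1 scale: their medians over all rows were 6.24 and 6.26 in KrasD12, against 5.90 and 5.91 in WT, and over all genes the difference had a median of 0.26 as deposited but -0.0038 once the columns were quantile normalized. A gene is therefore said to have risen or fallen only when limma's adjusted p lay under 0.05 in the same direction on both scalings. Differences are KrasD12 minus WT on the deposited values with limma's moderated SE (n = 2 per group), and the quantile value is given beside them. A log2 value of 5.15, the 95th percentile of 1210 rows of olfactory and vomeronasal receptor genes, is used as the dim level, below which a value is not told from rows of genes that lung fibroblasts are not known to use. Levels of different array rows are not comparable with each other.

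Of the RAL exchange factors, Rgl1 and Rgl2 were higher in KrasD12 fibroblasts on every scaling tried, and Ralgds was higher on all but median centring. Of the RAS exchange factors, Sos2 and Rasgrf1 were higher and Rasgrp3 was lower. Of the 10 members, 5 rose (Sos2, Rasgrf1, Ralgds, Rgl1 and Rgl2), 1 fell (Rasgrp3) and 4 were not called. Over all genes 22.4% rose and 11.5% fell by the same rule, so 1 fall in 10 is near the background. With columns centred on their medians alone, 4 members were higher and 4 lower, the dim Rasgrp1, Rasgrp2 and Rasgrf2 joining Rasgrp3. Over all 19938 genes that centring alone gave 3574 higher and 6657 lower, so falls were then the more common direction. The 10 members had a median difference of 0.37 as deposited and 0.27 on the quantile scale, where all genes had 0.26 and -0.0038. Both KrasD12 samples lay above both WT samples for 6 members and below them for 3, beside 64.3% and 18.7% of all genes. The SD between A and B of a group had a median of 0.053 over the members and reached 0.24 for Rasgrp2 in KrasD12. No p-value of an exact permutation test over samples could go below 0.333 with 2 against 2.

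**Figure D1:**
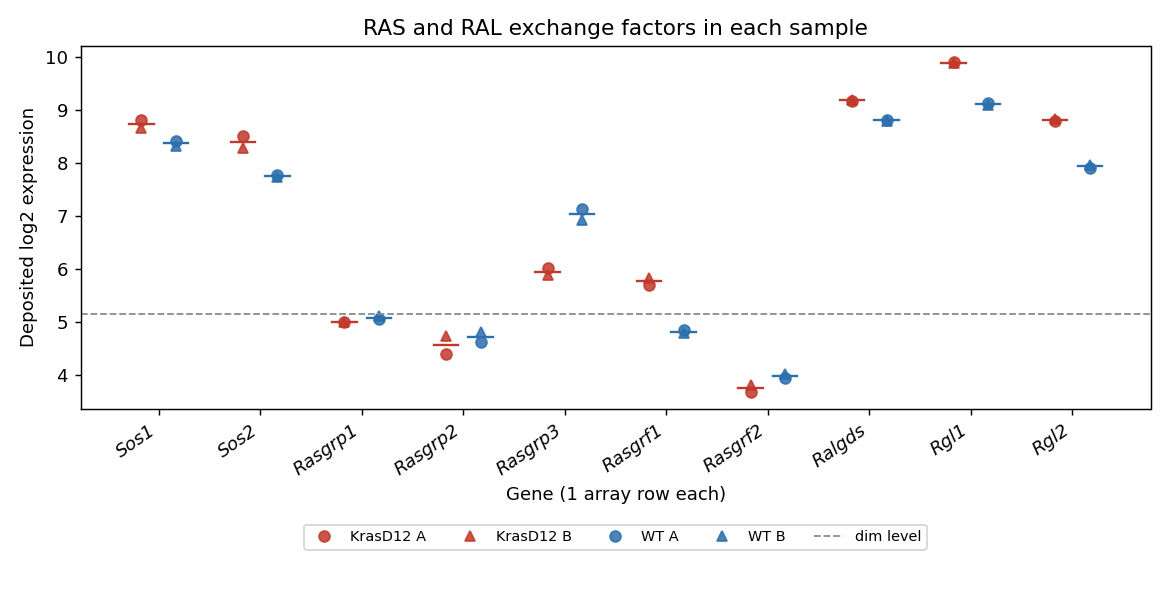
Deposited log2 expression of the 10 exchange factors in each sample, KrasD12 in red left of WT in blue, with circles for A, triangles for B, short lines for group means and a dashed line for the dim level of 5.15. Rasgrp3 is the member whose KrasD12 samples lie furthest below its WT samples, and heights of different genes are not comparable.

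The promoters of the 4 called members with the largest differences are shown because these members carry the result. They were read from RefSeq's table for GRCm38.p6, 250 bases before to 50 bases after an annotated start, 5′ to 3′ on the gene's strand. All 10 members matched that table, 4 of them with 2 starts, which made 14 promoters, and of Rasgrp3 and Rgl1 the upstream start is shown. The array row does not tell the starts of a gene apart. Capitals mark every match, on either strand, to the motif letters searched: AP-1 as TGANTCA, the ETS core as CGGAAG, the E-box as CACGTG, the GC box as GGGCGG and the short CRE site as TGACGT.
Rasgrp3 promoter: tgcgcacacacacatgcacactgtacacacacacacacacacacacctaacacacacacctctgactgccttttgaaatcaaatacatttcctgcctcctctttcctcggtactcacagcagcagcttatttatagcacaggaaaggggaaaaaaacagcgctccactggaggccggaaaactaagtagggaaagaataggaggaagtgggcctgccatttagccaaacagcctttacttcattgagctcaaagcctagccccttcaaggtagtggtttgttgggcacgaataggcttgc
Rasgrf1 promoter: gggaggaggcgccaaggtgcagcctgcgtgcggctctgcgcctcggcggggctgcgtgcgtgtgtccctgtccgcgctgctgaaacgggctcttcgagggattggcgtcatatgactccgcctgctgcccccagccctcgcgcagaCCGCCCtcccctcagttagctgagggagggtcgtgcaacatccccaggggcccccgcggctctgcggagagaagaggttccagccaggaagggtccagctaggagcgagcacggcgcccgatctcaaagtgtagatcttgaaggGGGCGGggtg
Rgl2 promoter: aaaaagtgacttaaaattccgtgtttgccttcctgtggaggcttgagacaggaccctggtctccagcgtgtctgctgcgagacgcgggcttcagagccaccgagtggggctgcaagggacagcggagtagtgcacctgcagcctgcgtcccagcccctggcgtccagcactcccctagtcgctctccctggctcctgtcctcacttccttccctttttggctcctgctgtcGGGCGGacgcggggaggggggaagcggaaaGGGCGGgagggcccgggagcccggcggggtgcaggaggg
Rgl1 promoter: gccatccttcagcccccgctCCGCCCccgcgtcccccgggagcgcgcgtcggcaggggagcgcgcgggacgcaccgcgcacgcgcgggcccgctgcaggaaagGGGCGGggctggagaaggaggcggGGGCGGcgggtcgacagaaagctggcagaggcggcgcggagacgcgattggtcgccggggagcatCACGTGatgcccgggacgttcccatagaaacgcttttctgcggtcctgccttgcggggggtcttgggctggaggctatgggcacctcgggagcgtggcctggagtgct

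The Rasgrp3 window lies at chr17:75435655-75435954 on the plus strand and held none of these letters, nor did the window of its downstream start. The Rasgrf1 window at chr9:89909525-89909824, plus strand, held 2 GC boxes, and that of Rgl2 at chr17:33929644-33929943, plus strand, also held 2. The Rgl1 window at chr1:152766256-152766555, minus strand, held 3 GC boxes and an E-box that began 58 bases before the start. GC content was 48.3% for this Rasgrp3 window, 68.3% for Rasgrf1, 65.7% for Rgl2 and 73.3% for Rgl1, beside a median of 52.7% over all 32851 promoters of that length. Of the 14 member promoters, 9 held a GC box, 3 an E-box, 2 an ETS core, 1 a short CRE site and 0 an AP-1 site. Over all 32851 promoters the shares were 35.7%, 7.15%, 16.9%, 7.51% and 7.81% in that order. In the Rasgrf2 promoter the E-box and the short CRE site overlapped, and in 1 Rasgrp2 promoter 2 GC boxes overlapped. Such matches describe the letters in these windows only.

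Rgl2, which binds GTP-loaded RAS and activates RAL, read 8.78 and 8.82 in KrasD12, against 7.90 and 7.96 in WT. Its groups lay apart by many times the distance between A and B, and it rose by 0.87 ± 0.07 (limma adjusted p = 0.000788), or 1.83-fold, with 0.74 after quantile normalization (adjusted p = 0.000699). Rgl1, its close relative, read 9.89 and 9.88 in KrasD12, against 9.12 and 9.08 in WT. A and B were nearly equal in both groups, and Rgl1 rose by 0.785 ± 0.07 (adjusted p = 0.000877), with 0.73 after quantile normalization (adjusted p = 0.000635). On the quantile scale 3.02% of all genes were at least as high as Rgl2 and 3.17% at least as high as Rgl1 in their difference.

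Ralgds, the founding member of the RAL exchange family, read 9.17 and 9.18 in KrasD12, against 8.81 and 8.79 in WT. Its rise of 0.375 ± 0.06 (adjusted p = 0.00547) was smaller, 0.29 after quantile normalization (adjusted p = 0.0172), and 20.3% of all genes had at least as high a difference on that scale. It was 0.03 (adjusted p = 0.745) when columns were centred on their medians, where the call ended. With any 1 sample left out, Ralgds did not pass on both scalings, although its difference stayed between 0.365 and 0.385. Rgl1 and Rgl2 kept their calls under median centring, at 0.44 and 0.525. Genes of like mean had a median deposited difference of 0.085 around Ralgds, 0.065 around Rgl1 and 0.15 around Rgl2.

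Sos2 read 8.5 and 8.28 in KrasD12, against 7.76 and 7.73 in WT. KrasD12 A stood above KrasD12 B, yet both lay above both WT samples, and Sos2 rose by 0.645 ± 0.09 (adjusted p = 0.00323) or 0.48 after quantile normalization (adjusted p = 0.00700). Without KrasD12 A the difference was 0.535, with a quantile adjusted p of 0.0531, so the call then ended. Sos1, the paralogue with the same role, read 8.81 and 8.65 in KrasD12, against 8.41 and 8.32 in WT. The groups did not overlap, but Sos1, at 0.365 ± 0.09 (adjusted p = 0.0146), missed the threshold after quantile normalization, at 0.245 (adjusted p = 0.0533). A difference in response between Sos1 and Sos2 was not tested.

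Rasgrp3 showed the widest difference of the members and the fall. RASGRP3 is activated by diacylglycerol and loads both RAS and RAP1. It read 6.01 and 5.88 in KrasD12, against 7.13 and 6.93 in WT, all above the dim level. Both KrasD12 samples lay well below both WT samples. Rasgrp3 fell by 1.085 ± 0.10 (adjusted p = 0.00100), or 2.12-fold, and by 1.40 after quantile normalization (adjusted p = 0.000231), or 2.64-fold. A difference at least as low was seen in 1.08% of all genes as deposited and in 0.898% on the quantile scale. Without KrasD12 B the difference was -1.02, and the call ended (deposited adjusted p = 0.0567).

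Rasgrp1 and Rasgrp2 lay below the dim level in every sample. Rasgrp1, the T-cell exchange factor, read 5.0 and 5.0 in KrasD12, against 5.05 and 5.12 in WT. Rasgrp2, which in platelets acts mainly on RAP1, read 4.40 and 4.74 in KrasD12, against 4.62 and 4.81 in WT, and its groups overlapped. Neither was called on the deposited values, at -0.085 ± 0.07 (adjusted p = 0.313) and -0.145 ± 0.14 (adjusted p = 0.384). After quantile normalization they stood at -0.48 and -0.55, past the threshold (adjusted p = 0.00301 and 0.0121). Dim genes as a whole were shifted upward in the deposited KrasD12 columns: genes of like mean had a median difference of 0.405 around Rasgrp1 and 0.395 around Rasgrp2.

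Rasgrf1 crossed the dim level between the groups. It encodes a calcium-responsive exchange factor and is expressed from the paternal allele in mouse brain. It read 5.70 and 5.83 in KrasD12, above the dim level, against 4.85 and 4.79 in WT, below it. Rasgrf1 rose by 0.945 ± 0.08 (adjusted p = 0.000850) and by 0.55 after quantile normalization (adjusted p = 0.00212). Genes of like mean had a median deposited difference of 0.40. Its relative Rasgrf2 read 3.68 and 3.82 in KrasD12, against 3.94 and 4.02 in WT, all below the dim level. Rasgrf2 missed the threshold on the deposited values, at -0.23 ± 0.08 (adjusted p = 0.0533), and passed it after quantile normalization, at -0.59 (adjusted p = 0.00227).

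**Figure D2:**
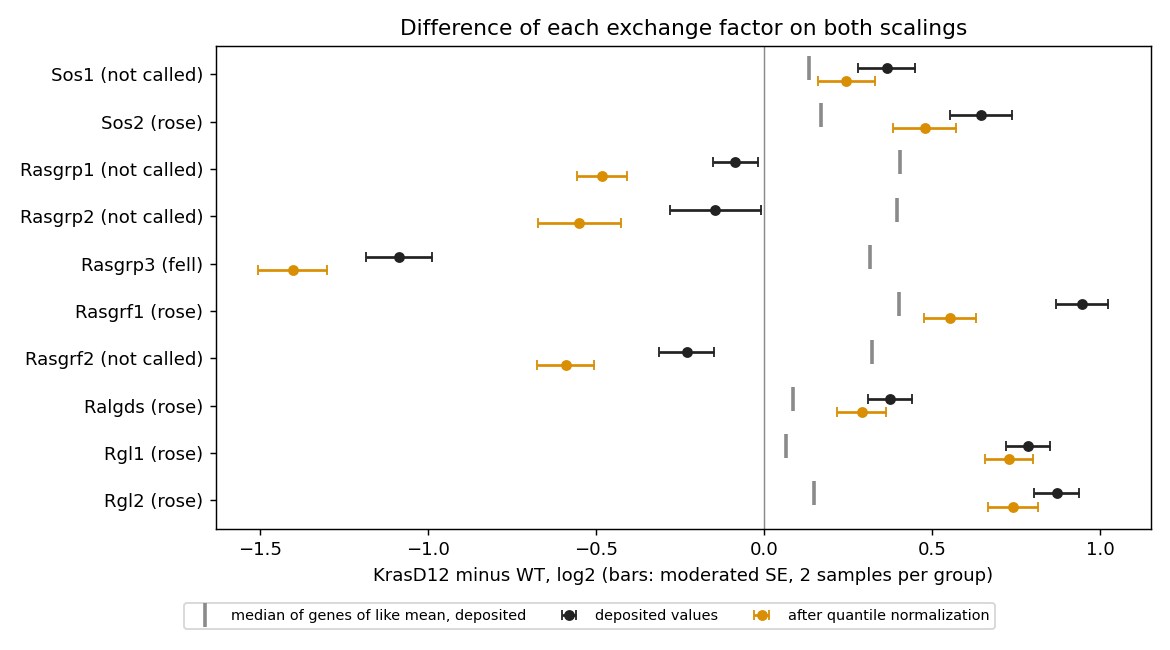
Difference KrasD12 minus WT of each exchange factor in log2 units, black for deposited and orange for quantile-normalized values, with bars of 1 moderated SE (2 samples per group) and a grey tick for the median deposited difference of genes whose mean lies within 0.5. The 5 members that rose lie right of 0 on both scalings, Rasgrp3 lies left of it at -1.085 and -1.40, and the dim members Rasgrp1, Rasgrp2 and Rasgrf2 move left with quantile normalization.

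Leaving out 1 sample leaves its group with a lone sample, which is assumed to vary like the other group, and 1 residual degree of freedom. When either WT sample was left out, limma called no member and no gene, with a smallest adjusted p of 0.0552 without WT A and 0.0530 without WT B. With all 4 samples, 6 members were higher and 2 lower at an unadjusted p under 0.05 on both scalings. On the deposited values alone, 13377 of all 19938 genes lay under that unadjusted p. The size of the differences moved less than the calls. With 1 sample left out at a time, Rgl1 ranged from 0.765 to 0.805, Rgl2 from 0.84 to 0.90, Rasgrf1 from 0.88 to 1.01, Sos2 from 0.535 to 0.755 and Rasgrp3 from -1.185 to -0.985. Sos1 ranged from 0.285 to 0.445 and Rasgrp2 from -0.315 to 0.025, the only member whose sign turned.

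**Figure D3:**
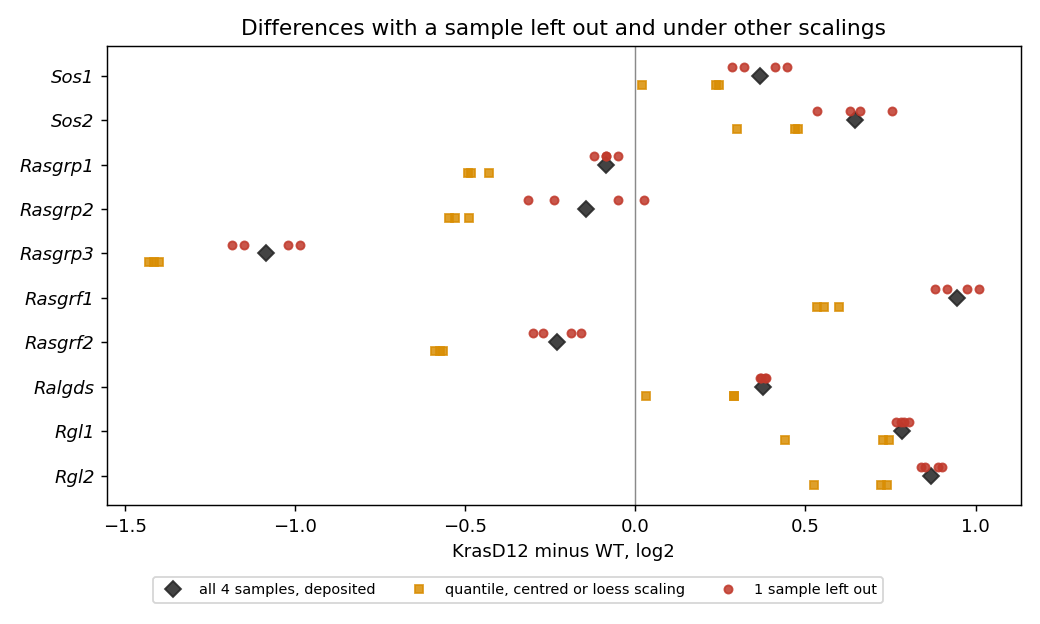
Difference KrasD12 minus WT of each exchange factor in log2 units, with a black diamond for all 4 samples on the deposited values, red circles for each fit with 1 sample left out and orange squares for quantile, median-centred and cyclic loess scaling. Rasgrp3 stays at or below -0.985 in every fit shown, while Ralgds and Sos1 reach 0.03 and 0.02 under median centring.

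In the lists that follow, calls on both scalings are set against the same all-gene shares of 22.4% risen and 11.5% fallen. Counts under median centring alone are set against 3574 higher and 6657 lower of 19938 genes. Those under quantile normalization alone are set against 4485 and 4861. The first list holds the other exchange factors with the same catalytic CDC25 domain. Of 11 measured, 5 rose and 0 fell on both scalings, beside 3 higher and 3 lower under median centring alone, with 2 lower (Ralgps2 and Rapgef5) after quantile normalization alone, and the list had a median of 0.395 as deposited and 0.01 on the quantile scale. Rgl3, the remaining RGL gene, read 7.51 and 7.55 in KrasD12, against 6.75 and 6.98 in WT, and rose by 0.665 ± 0.10 (adjusted p = 0.00319; 0.42 after quantile normalization). Rapgef3, a cAMP-activated exchange factor for RAP, rose by 0.695 and Rapgef6 by 0.53, or 0.52 and 0.32 after quantile normalization. Rapgefl1 rose by 1.165 (0.77 after quantile normalization), with WT values of 4.34 and 4.44 below the dim level. Rapgef2, the fifth, chosen after its values were seen, rose by 0.505. Rasgrp4, a mast-cell member of the RASGRP family, stood at 0.395 deposited and 0.01 after quantile normalization, and was not called.

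Of the GTPases on which these enzymes act, Rala fell and 0 of the 6 measured rose, beside 0 higher and 4 lower under median centring alone. Rala read 9.33 and 9.14 in KrasD12, against 9.54 and 9.58 in WT, and fell by 0.325 ± 0.09 (adjusted p = 0.0233) or 0.395 after quantile normalization (adjusted p = 0.0101). Ralb, its paralogue, read 8.93 and 8.89 in KrasD12, against 8.53 and 8.65 in WT. Its difference of 0.32 ± 0.08 missed the threshold after quantile normalization (0.22, adjusted p = 0.0535). Nras (0.065) and Rras2 (0.045) passed the threshold on neither scaling. Rras (-0.205) passed it on the deposited values only (limma adjusted p = 0.0465). Mras (-0.22) passed it after quantile normalization only (limma adjusted p = 0.0404), so neither of these was called.

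Of 13 measured adaptors that bring SOS to receptors, 6 rose, 2 fell and 5 were not called, beside 4 higher and 4 lower under median centring alone. Irs2, an insulin receptor substrate, read 8.68 and 8.83 in KrasD12, against 7.45 and 7.44 in WT, and rose by 1.31 ± 0.08 (adjusted p = 0.000508; 1.15 after quantile normalization). Shc1, the adaptor between receptors and GRB2, rose by 0.845, Shc3 by 0.665 and Shc2 by 0.585, with 0.86, 0.26 and 0.45 after quantile normalization. Shc3 lay below the dim level in all 4 samples. Shc4 (-0.24) and the phosphatase gene Ptpn11 (-0.225) fell, and both were chosen after their values were seen. Grb2 itself stood at 0.095 ± 0.09 and was not called. The median of these adaptors was 0.405 as deposited and 0.21 on the quantile scale.

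Of 13 measured enzymes that make or remove diacylglycerol, the input of the RASGRP proteins, 2 rose and 2 fell, near the shares over all genes. Under median centring alone 1 was higher and 4 were lower. Plcg1, a phospholipase activated by receptor kinases, rose by 0.715 ± 0.07 (0.65 after quantile normalization) and Plcb4, a phospholipase downstream of G proteins, fell by 0.78 ± 0.08 (-0.90). Dgke and Dgkd, kinases that remove diacylglycerol, stood at -0.70 (fell) and 0.51 (rose), with -1.06 and 0.32 after quantile normalization. Their median was 0.255 as deposited and 0.03 on the quantile scale.

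Of 12 GTPase-activating proteins of RAS and RAL, which act against the exchange factors, 5 rose and 1, Rasal2 (-0.25, chosen after its values were seen), fell, and under median centring alone 1 was higher and 5 were lower. Ralgapa2, a catalytic subunit of the RAL complex, read 7.10 and 7.00 in KrasD12, against 6.43 and 6.30 in WT, and rose by 0.685 ± 0.08 (adjusted p = 0.00190; 0.38 after quantile normalization). Nf1, Dab2ip and Rasa4 rose by 0.49, 0.475 and 0.46, with 0.43, 0.33 and 0.22 after quantile normalization. Of 8 measured subunits of the exocyst, listed here together as the RAL effector complex, 1 rose and 2 fell. Under quantile normalization or cyclic loess alone 1 was higher and 4 were lower, and under median centring alone 0 were higher and 6 lower. Which of these subunits bind RAL was not tested. Exoc7 rose by 0.405, and Exoc3 (-0.45) and Exoc6 (-0.395) fell. After quantile normalization these stood at 0.29, -0.52 and -0.78. The GTPase-activating proteins had a median of 0.27 as deposited and 0.03 on the quantile scale, and the exocyst subunits had -0.145 and -0.23.

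**Figure D4:**
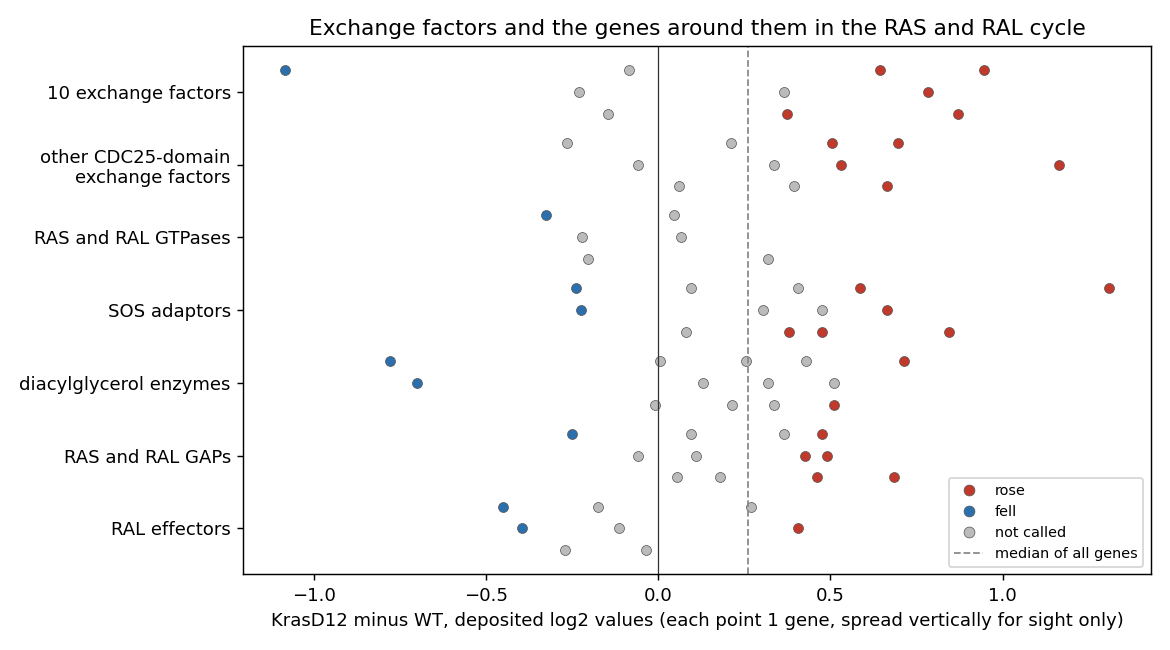
Difference KrasD12 minus WT on the deposited log2 values for the 10 exchange factors and 6 lists around them, 1 point per gene, red for genes that rose on both scalings, blue for genes that fell and grey for genes not called, with a dashed line at the median of all genes (0.26). Of the 10 exchange factors 5 are red and 1 is blue, beside 22.4% risen and 11.5% fallen over all genes. Under median centring alone 4 were higher and 4 lower, beside 3574 higher and 6657 lower of 19938 genes.

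The labelled cell type was checked by its markers. All 9 fibroblast markers lay above the dim level in both groups. Of these 1 rose, Pdgfra (0.26), and 3 fell, Col1a1 (-0.595), Pdgfrb (-0.495) and Thy1 (-0.31). Their mean levels were 11.04 and 11.06 in KrasD12, against 11.21 and 11.21 in WT. Of the markers of other cell types, 8 of 10 epithelial, 4 of 8 endothelial and 3 of 8 macrophage markers lay above the dim level in KrasD12, against 6, 3 and 4 in WT. On the deposited columns, which did not share 1 scale, 14463 of all 19938 genes lay above the dim level in KrasD12 and 13133 in WT. The defining genes Ptprc (leukocytes), Pecam1 and Cdh5 (endothelium) and Epcam (epithelium) lay below it in all 4 samples. Other markers of these lists, chosen after their values were seen, lay above it in all 4 samples. Among them were Nkx2-1 and Krt8 (epithelium), Tek and Vwf (endothelium) and Cd68 (macrophages). The markers therefore do not settle whether other cell types were present. Beside the fall of Rasgrp3, 0 of 8 endothelial markers were called on both scalings. On the deposited values alone 5 of these 8 were higher, beside 9991 of all 19938 genes. After quantile normalization alone 1 was lower, beside 4861 of all genes. Mean endothelial marker levels were 5.25 and 5.30 in KrasD12, against 5.03 and 4.90 in WT. Of 8 macrophage markers 2 fell, Lyz2 (-1.475) and Csf1r (-0.43), and 1 rose, Adgre1 (0.625), which lay below the dim level in all 4 samples. Mean macrophage marker levels were 5.0 and 5.07 in KrasD12, against 4.89 and 4.94 in WT. Of 4 smooth muscle markers, 3 fell, Acta2 (-1.67), Cnn1 (-1.65) and Myh11 (-1.56), with mean levels of 6.92 and 6.89 in KrasD12, against 8.0 and 7.99 in WT. Beside the rise of Rasgrf1, 1 of 7 neuronal markers rose (Elavl4, by 1.565) and 2 fell (Stmn2, -0.655, and Rbfox3, -0.455), with mean levels of 5.2 and 5.17 in KrasD12, against 4.91 and 4.91 in WT. Of 9 lymphocyte and platelet markers 1 rose, Cd79a by 1.02 with all values below the dim level, and 1 fell, Pf4 (-0.37), also below it. Their mean levels were 4.81 and 4.90 in KrasD12, against 4.56 and 4.52 in WT. Of 10 epithelial markers 2 rose, Sftpc and Sftpb, by 0.92 and 0.70, and the list's mean levels were 5.35 and 5.47 in KrasD12, against 4.99 and 5.01 in WT. These levels are as deposited, where all genes had a median difference of 0.26, and -0.0038 on the quantile scale. Median differences as deposited and on the quantile scale were 0.465 and 0.11 for epithelial and 0.31 and -0.07 for endothelial markers. They were 0.34 and -0.05 for macrophage, 0.285 and -0.07 for lymphocyte and platelet, and 0.415 and 0.03 for neuronal markers. Fibroblast markers had -0.205 and -0.03, and smooth muscle markers -1.605 and -1.73. The part of these genes in the differences of the exchange factors was not tested, and in bulk samples fewer cells of a type and less RNA per cell cannot be told apart.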

How the data were processed

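Log2 expression values of 28944 array rows and 4 samples were used as the authors deposited them. Transcriptome Analysis Console is listed in the submitters' processing notes. The version, normalization, background correction and build are not given there. The platform annotation gave 21789 rows exactly 1 symbol, 1621 several and 5534 none. Only the first were used, and the row with the highest mean stood for a gene with several, which left 19938 genes. Symbols were updated for the 21698 rows that matched RefSeq's gene table of GRCm38.p6, which also gave chromosomes.

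All genes were fitted with limma's lmFit and eBayes (version 3.58.1, R 4.3.3; group as the only term, two-sided, Benjamini-Hochberg over all genes), on the values as deposited and again after quantile normalization over all rows. A call needed an adjusted p under 0.05 in the same direction on both. The fit was tested on simulated data whose columns shared 1 scale, so that test does not cover the difference in scale between the deposited columns. Values were plotted with matplotlib 3.10.9 in Python 3.11.15. Like-mean medians cover genes whose mean lies within 0.5. Named genes are all members, the GTPases, and of each other list the 4 called genes with the largest differences (where fewer than 2 were called, the 2 largest). Called markers and the defining markers of each cell type are named too, and Grb2, Rasgrp4, Ralgps2, Rapgef5 and the genes so marked were chosen after their values were seen. With 2 arrays per group, 2 residual degrees of freedom limit the precision. The members and lists were chosen with earlier results of these data known.

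The alternatives were each scaling alone (deposited, quantile, median-centred, cyclic loess), the replicate letter as a block, dim genes left out, a trended or a robust eBayes, rows of a gene averaged, each sample left out, and a difference of at least 1.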

Additional observations from a re-analysis of the deposited data

How the results depend on the processing

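The counts of 5 members higher and 1 lower depended on the scaling and on single samples. Lower members numbered 4 after quantile normalization, median centring or cyclic loess alone, the other three being the dim Rasgrp1, Rasgrp2 and Rasgrf2. With 1 sample left out, 0 to 4 members were called higher and 0 to 1 lower, both at 0 without WT A or WT B. Without KrasD12 A, 3 were higher, Sos2 and Ralgds having lost their calls, and without KrasD12 B 0 were lower. With a required difference of 1 on both scalings 0 were higher and 1 was lower. Sos1 joined the rises in 4 alternatives, among them the replicate block, which gave 6 higher and 1 lower. No shared deviation by letter was seen: the deviations of A from B correlated at 0.0132 between the groups across genes. This value cannot tell whether samples of the same letter were handled together. No called member turned its sign in any alternative. Rasgrp1, Rasgrp2 and Rasgrf2 lie below the dim level and have no value under the filter on dim genes. Of 168 counts of risen or fallen genes in the other 6 lists under the alternatives, 77 moved and 91 did not. A count moved if it changed by over 1.5 times, or to or from 0. Over all genes, calls numbered 4459 higher and 2298 lower, or 66.0% and 34.0% of the called genes. On the deposited values alone they numbered 9991 and 2381 (80.8% and 19.2% of those called). After quantile normalization alone they numbered 4485 and 4861 (48.0% and 52.0% of those called). With centring they numbered 3574 and 6657 (34.9% and 65.1%), and with cyclic loess 4533 and 4933 (47.9% and 52.1%). Without KrasD12 A or B they were 1762 and 1086, or 1434 and 755, with a required difference of 1 they were 246 and 255, and without WT A or B 0, with 9846 and 10022 genes at an unadjusted p under 0.05 on the deposited values. The cause of these changes was not tested, and with 2 arrays per group the number of arrays limits what can be called.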
